A study of Rattus norvegicus with 48 samples.

Results

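The messenger RNAs of the REV-ERB pair, Nr1d1 (ENSRNOG00000009329) and Nr1d2 (ENSRNOG00000046912), were followed through the subcutaneous fat (SAT) and visceral fat (VAT) of male adolescent rats. These are 2 of the 23481 gene IDs in the deposited table, and both passed the filter on low counts in every fit. They were picked by ID because their levels were already known to differ between the times of day in these libraries. Levels by time of day are therefore given as a description without a test, and tests are kept for exercise, for depot and for the rats within a group. The pairing of the IDs with the symbols came with the choice of the genes and was not checked against a sequence or an annotation.

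The animals were sedentary controls or exercised rats, at the early active phase (zeitgeber time 13, in hours after lights on) or at the late active phase (zeitgeber time 23). Fat was taken on postnatal day 61, in exercised rats 24 h after their last session. This gave controls and exercised rats at either phase, 6 rats in each of these 4 groups, with both depots sequenced, for 24 rats and 48 libraries of polyA RNA. The labels give neither the strain nor the kind of exercise, and early and late animals were different rats, so handling that differed between the times cannot be told apart from the time itself.

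REV-ERB alpha and beta, the proteins of Nr1d1 and Nr1d2, are nuclear receptors that bind haem and act as repressors of transcription. They form a second loop of the circadian clock: the activators CLOCK and BMAL1 switch on both genes through E-box elements, and the REV-ERB proteins in turn repress Bmal1 at sites that the ROR activators also bind. REV-ERBs recruit corepressors with histone deacetylase activity, and in fat they are known for ties to adipocyte differentiation, lipid storage and thermogenic genes. Their transcripts are among the strongly cycling ones in most peripheral tissues, and in nocturnal rodents they are known to peak in the light phase and to fall through the dark.

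Of the 48 libraries, 4 stood apart, with a median rank correlation to the rest of their depot more than 5 median absolute deviations below that depot's median. These atypical libraries were SAT late exercise replicates 4 and 6 (0.828 and 0.846, against 0.956 to 0.98 in the rest of SAT) and VAT early control replicate 5 and early exercise replicate 3 (0.958 and 0.95, against 0.976 to 0.984 in the rest of VAT). Results that rest on them are given with and without them. Libraries held 13163675 to 17890033 estimated counts, and levels are in CPM, counts relative to the normalised size of their library, where 1 count in the smallest total, before normalisation, is 0.076 CPM. The IDs of the table could not be paired with other symbols, and the labelled tissue was therefore not checked against fat cell markers.

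RefSeq's promoter table (build GRCr8) lists 2 start sites for Nr1d1 and 1 for Nr1d2. The 250 bases before a start are shown for the windows that held one of the motifs searched on both strands. Those motifs were the E-box CACGTG bound by CLOCK and BMAL1, the nuclear receptor half-site AGGTCA bound by REV-ERBs and RORs, and the D-box TTANGTAA bound by DBP and NFIL3. Capitals mark the match, and the sequences run 5′ to 3′ along the gene's strand.
Nr1d1, inner start, chr10:84229455-84229704, minus strand: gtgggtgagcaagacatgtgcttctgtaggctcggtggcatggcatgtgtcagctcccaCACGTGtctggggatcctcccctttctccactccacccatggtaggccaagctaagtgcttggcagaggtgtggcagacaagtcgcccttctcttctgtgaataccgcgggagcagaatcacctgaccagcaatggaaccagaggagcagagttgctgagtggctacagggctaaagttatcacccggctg
Nr1d2, chr15:9954784-9955033, plus strand: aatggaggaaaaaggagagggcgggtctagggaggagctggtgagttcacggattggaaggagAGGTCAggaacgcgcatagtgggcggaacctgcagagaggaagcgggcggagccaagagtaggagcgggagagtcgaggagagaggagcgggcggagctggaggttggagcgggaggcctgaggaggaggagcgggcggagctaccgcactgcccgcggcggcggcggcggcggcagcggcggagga
The inner Nr1d1 window held 1 E-box, which began 191 bases before the start, and an E-box was found in 5.59% of all 33469 windows of this length. The Nr1d2 window held 1 half-site, 187 bases before its start, and a half-site was found in 14.1% of all windows. A D-box was in neither and in 2.04% of all windows. No motif was found in windows of both genes. The window of the outer Nr1d1 start (chr10:84231813-84232062, minus strand) held none of the motifs. A match is a match of letters only, and a window without one says nothing of sites elsewhere in the gene.

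Nr1d1 transcripts were abundant early and scarce late in both depots. In SAT of early control rats the 6 libraries held 48.1, 63.8, 66.9, 69.2, 105 and 113 CPM, and in early exercise 62.4, 68.4, 83.3, 87.1, 93.7 and 125 CPM. SAT of late control rats held 2.26, 2.79, 3.24, 3.84, 5.3 and 6.28 CPM, and of late exercise 2.51, 3.26, 3.47, 3.78, 3.79 and 4.01 CPM. Every early library thus lay above every late one, and the lowest early value was 7.67 times the highest late value. The pair was picked for this pattern, and how many other genes separate as fully in either depot was not counted.

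VAT showed the same pattern for Nr1d1. Early control libraries held 41.4, 58.6, 60.8, 64.3, 99.3 and 111 CPM and early exercise libraries 65.7, 66.2, 66.6, 72.7, 95 and 124 CPM. Late control libraries held 2.23, 2.34, 2.52, 2.96, 3.05 and 3.58 CPM and late exercise libraries 1.64, 2.12, 2.2, 2.59, 2.89 and 5.69 CPM. Again no early library overlapped a late one, with a gap of 7.27-fold, and the 5.69 CPM of late exercise replicate 5 stood well above the other late VAT values.

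Nr1d2 fell as well, from a narrower early range. In SAT its early control libraries held 158, 169, 177, 180, 191 and 204 CPM and its early exercise libraries 163, 165, 171, 180, 182 and 193 CPM. At the late phase SAT held 18.1, 19.4, 19.6, 22.6, 23.7 and 25.4 CPM in controls and 15.8, 17.1, 17.8, 20.2, 31.1 and 35.7 CPM after exercise. The 31.1 and 35.7 CPM belong to the atypical libraries, replicates 6 and 4, and lay above all other late libraries of either depot, yet the lowest early SAT value was still 4.42 times the higher of them.

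In VAT Nr1d2 stood at 123, 130, 136, 143, 154 and 172 CPM in early control and at 147, 147, 150, 162, 170 and 171 CPM in early exercise. Late control libraries held 17.9, 19, 20.8, 21.2, 22.4 and 23.1 CPM and late exercise libraries 13.5, 17.6, 21.6, 21.7, 22.5 and 23.3 CPM. Early and late libraries did not overlap here either, with a gap of 5.29-fold.

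**Figure D1:**
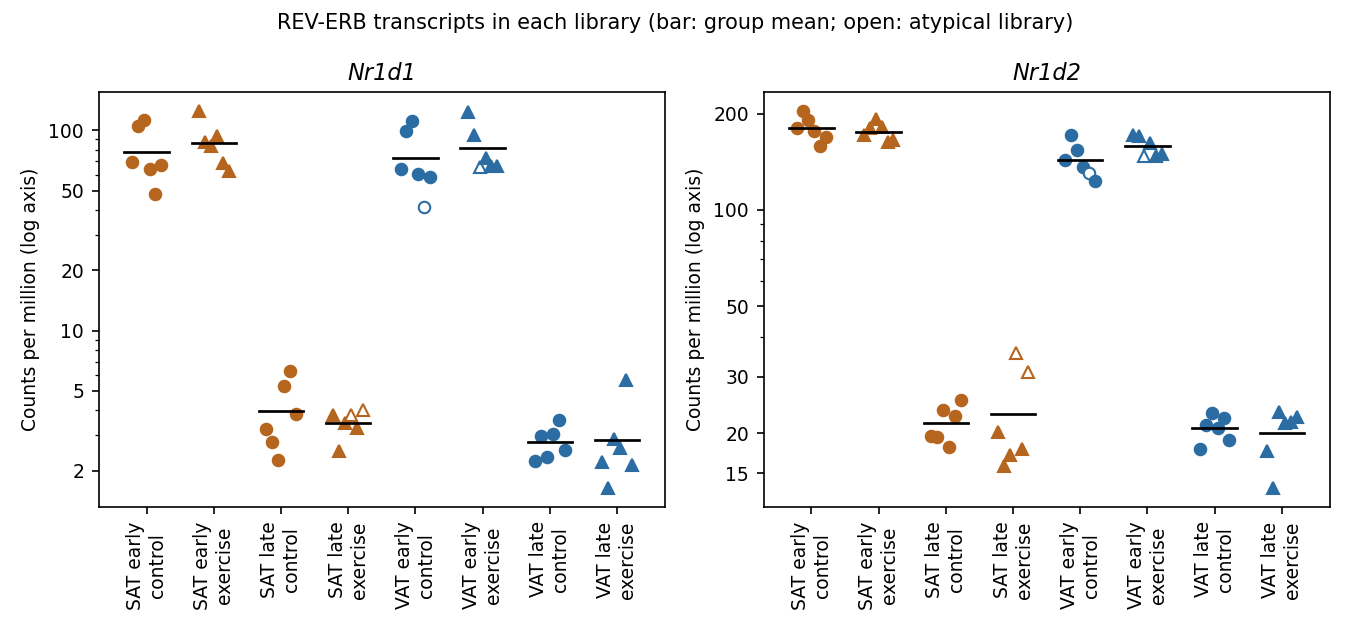
CPM of Nr1d1 (left) and Nr1d2 (right) in each of the 48 libraries on a log axis, by depot, phase and activity, with a bar at each group mean and open symbols for the 4 atypical libraries. All early libraries lie above all late ones, and the open Nr1d2 symbols in SAT late exercise, at 35.7 and 31.1 CPM, lie above the 15.8 to 20.2 CPM of the other rats of that group.

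Fitted as late minus early, the log2 change of Nr1d1 was -4.30 ± 0.261 (SE) in SAT of controls and -4.65 ± 0.266 in SAT of exercised rats. In VAT it was -4.71 ± 0.28 and -4.85 ± 0.281, so that the falls were 19.7-fold, 25-fold, 26.1-fold and 28.8-fold in that order. The changes of Nr1d2 were smaller, at -3.06 ± 0.167 and -2.94 ± 0.166 in SAT and -2.79 ± 0.111 and -2.99 ± 0.112 in VAT, which were falls of 8.36-fold, 7.68-fold, 6.92-fold and 7.93-fold. Ranked by size of the fall among all genes tested, Nr1d1 stood at 16 (control) and 6 (exercise) of 14372 in SAT. In VAT it stood at 5 and 4 of 13883. Nr1d2 stood at 64 and 19 in SAT and at 34 and 20 in VAT. Without the atypical libraries the Nr1d2 change in SAT of exercised rats was -3.31 ± 0.108. Since Nr1d1 fell further, the CPM of Nr1d2 per CPM of Nr1d1 went from a median of 2.35 (1.37 to 3.28, 12 libraries) early to 6.18 (3.42 to 10.5) late in SAT, and from 2.21 (1.38 to 3.13) to 8.02 (3.82 to 10.6) in VAT. These ratios describe a shift within each library and not how abundant one gene is against the other, because transcript lengths were not used. In bulk tissue less RNA per cell and fewer cells that make it cannot be told apart.

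Ordered by mean, the groups split into 4 late and 4 early groups for either gene. For Nr1d1 the late means ran from 2.78 ± 0.513 CPM (SD, n = 6, VAT control) through 2.85 ± 1.45 (VAT exercise) and 3.47 ± 0.54 (SAT exercise) to 3.95 ± 1.55 (SAT control). Its early means ran from 72.6 ± 26.7 (VAT control) through 77.7 ± 25.5 (SAT control) and 81.8 ± 23.6 (VAT exercise) to 86.7 ± 22.2 CPM (SAT exercise). No neighbours within either block of 4 differed by more than the larger of their SDs. For Nr1d2 the late means ran from 20 ± 3.76 CPM (VAT exercise) through 20.7 ± 2 (VAT control) and 21.5 ± 2.87 (SAT control) to 23 ± 8.35 (SAT exercise), again all within the spread of their neighbours. The last mean was 17.7 ± 1.86 CPM (n = 4), below the other 3 means, without the atypical pair. The early Nr1d2 means were 143 ± 17.8 (VAT control), 158 ± 11.3 (VAT exercise), 176 ± 11.6 (SAT exercise) and 180 ± 16.2 CPM (SAT control), and here the step from VAT exercise to SAT exercise, 18 CPM, was larger than the larger SD of the neighbours.

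Among 11776 genes with a mean of at least 5 CPM in some group, 2 IDs followed the pair most closely over the 48 libraries, by Pearson correlation of log2 CPM centred within each depot with the mean profile of Nr1d1 and Nr1d2. ENSRNOG00000021027 had r = 0.988 and went from 180 ± 43.1 (SD, n = 6) in early control to 10.6 ± 1.26 CPM in late control of SAT, with 169 ± 45.8 and 9.27 ± 1.95 CPM for VAT. ENSRNOG00000018413 had r = 0.982, with 153 ± 19.3 and 14.9 ± 3.23 CPM in SAT and 124 ± 23.3 and 12.2 ± 2.59 CPM in VAT. The most opposite patterns were those of ENSRNOG00000014448 (r = -0.983) and ENSRNOG00000013408 (r = -0.978). Libraries of a phase share it, so these correlations mostly restate the early to late contrast. Values of r over 0.8 were reached by 0.756% of the genes compared and values under -0.8 by 0.696%, while Nr1d1 and Nr1d2 correlated with each other at r = 0.984.

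How far rats of a group lay apart depended on the transcript and the phase. In the 4 early groups the coefficient of variation (CV) of Nr1d1 was 25.6% to 36.8%, and the highest rat held 1.89 to 2.68 times the lowest. That of Nr1d2 was 6.58% to 12.4%, with 1.17-fold to 1.4-fold between the extremes. Counting alone would give medians of 2.61% to 3.28% for Nr1d1 and 1.84% to 2.17% for Nr1d2, so the early spread was larger than counting error in each group. At the late phase Nr1d1 had only 22 to 86 counts per library and a counting CV of 12.7% to 16.8%, against an observed 15.6% to 50.9%. Late Nr1d2 had an observed CV of 9.63% to 18.8% in 3 groups and 36.4% in SAT late exercise, which holds the atypical pair and where the CV of Nr1d1 was the lower, at 15.6%. Differences between late rats in Nr1d1 are thus in part not detectable at this depth.

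A rat that was high for Nr1d1 in one depot tended to be high in the other at the early phase. Among early control rats replicates 2 and 3 held 105 and 113 CPM in SAT and 99.3 and 111 CPM in VAT. Replicate 5, whose VAT library is atypical, was the lowest in both, at 48.1 and 41.4 CPM. Among early exercise rats replicate 1 was the highest in both depots, at 125 and 124 CPM. Replicate 4 of that group lay above the group mean in SAT (93.7 CPM) and below it in VAT (72.7 CPM). Replicates 1, 4 and 6 of the controls lay between 58.6 and 69.2 CPM in both depots, so among controls the rank of a rat was largely shared.

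Over all 24 rats the deviations of Nr1d1 from the group mean (log2 CPM, prior count 2) correlated between SAT and VAT at r = 0.63 (Spearman's rho 0.599). The 2-sided permutation p, with rats exchanged within groups, was 0.00046 for r and 0.00265 for rho, or 0.00184 and 0.0053 after Benjamini-Hochberg adjustment over the 4 relations tested. Without the 2 rats whose SAT deviation lay farthest from the median r was 0.632. VAT deviations were not used to pick these rats. Of 14693 genes 276 had an r at least as high, Nr1d1 included (1.88%), and the median over all genes was 0.113. In early rats alone (12 rats, a split added after the data were seen) r was 0.938 and rho 0.86 (permutation p = 0.00036 and 0.00126, adjusted over 8 relations 0.00288 and 0.00504), and r was 0.879 without the 2 farthest rats and 0.938 without the atypical libraries. In late rats r was 0.322 and rho 0.322 (permutation p = 0.167 and 0.292), where counts were low, and the difference between the phases was not tested. In early rats 0.116% of genes (17) had an r at least as high as that of Nr1d1, which is one of them, and in late rats 30.8% did; the medians over all genes were 0.134 and 0.129.

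By group, the Nr1d1 correlation between depots was 0.996 in early control, 0.832 in early exercise, 0.747 in late control and 0.152 in late exercise, with 6 rats in each. Their exact permutation p-values were 0.00278, 0.0319, 0.1 and 0.725, and 0.0444, 0.102, 0.2 and 0.807 after adjustment over 16 such relations. Spearman's rho was 0.943, 0.771, 0.714 and -0.143 in the same order, with adjusted exact permutation p-values of 0.133, 0.235, 0.272 and 0.803, so that early control passed by r and not by rho. The late exercise value includes VAT replicate 5, whose 5.69 CPM stood against 3.26 CPM in SAT of the same rat. Whether the 2 depots of a rat were also collected or processed together is not stated in the labels, and the part of this in the relation was not tested.

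Nr1d2 was also compared between the depots of a rat. Its deviations correlated between depots at r = 0.438 and rho = 0.379 over 24 rats (permutation p = 0.157 and 0.12, adjusted over 4 relations 0.157 and 0.12), which did not pass the threshold of 0.05, and 9.12% of genes had an r at least as high. In early rats r was 0.683 and rho 0.643 (permutation p = 0.0301 and 0.0395, adjusted over 8 relations 0.0601 and 0.0789). The early value was 0.442 without the 2 rats farthest from the median in SAT and 0.916 without the atypical VAT libraries. A few rats thus moved it in either direction. By group, r was 0.921 in early control and 0.138 in early exercise, with rho 0.943 and 0.2. The exact permutation p-values for r were 0.00972 and 0.807, or 0.0519 and 0.807 adjusted over 16 relations. In late rats r was 0.409 and rho 0.217 (permutation p = 0.346 and 0.557).

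**Figure D2:**
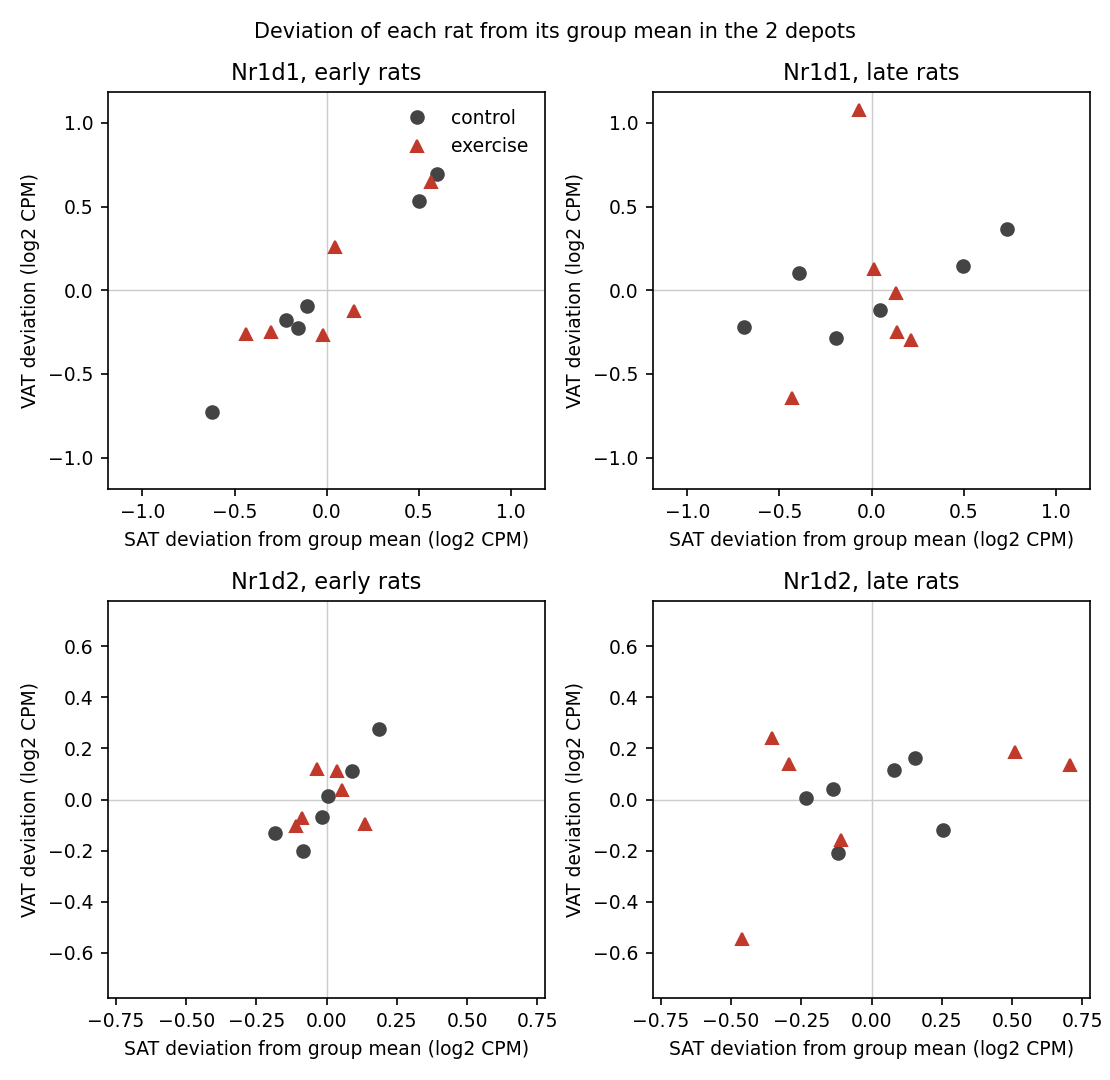
Deviation of each rat from its group mean (log2 CPM) in SAT on the horizontal axis and VAT on the vertical axis, for Nr1d1 (top) and Nr1d2 (bottom), in early rats (left) and late rats (right), with control and exercised rats marked apart. Early rats lie along a line for Nr1d1 (r = 0.938), and late rats scatter (r = 0.322).

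Within a library the 2 genes also moved together in VAT. How many other genes follow Nr1d1 as closely within groups was not tested in either depot. Deviations of Nr1d1 and Nr1d2 from the group mean correlated at r = 0.649 and rho = 0.631 over the 24 VAT libraries (permutation p = 0.00678 and 0.00246, adjusted over 4 relations 0.0136 and 0.0053). Without the 2 libraries farthest from the Nr1d1 median r was 0.7. It was 0.637 without the atypical VAT libraries (permutation p = 0.0142, adjusted 0.0285). In early VAT libraries r was 0.84 and in late ones 0.563 (permutation p = 0.00251 and 0.162, adjusted over 8 relations 0.01 and 0.222). In VAT early control, for example, replicate 2 held the most Nr1d2 (172 CPM) and the second most Nr1d1. Replicate 5, an atypical library, held the least Nr1d1 and 130 CPM of Nr1d2, while the least Nr1d2 (123 CPM) was in replicate 6.

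In SAT the relation over 24 libraries did not pass after adjustment, at r = 0.294 and rho = 0.403 (permutation p = 0.0748 and 0.0482, adjusted over 4 relations 0.0997 and 0.0643). Leaving out the 2 libraries farthest from the Nr1d1 median gave r = 0.379 (permutation p = 0.0229, adjusted 0.0305), and leaving out the atypical pair gave r = 0.32 (permutation p = 0.218, adjusted 0.218). Early SAT libraries had r = 0.721 and rho = 0.762 (permutation p = 0.0166 and 0.00933, adjusted over 8 relations 0.0443 and 0.0249), and r = 0.913 without the 2 farthest. By group, r was 0.923 in SAT early control and only 0.355 in SAT early exercise. The exact permutation p-values were 0.0181 and 0.511, or 0.0722 and 0.681 adjusted over 16 relations, so neither group passed. Late SAT libraries had r = 0.214 (permutation p = 0.362), and r = 0.032 without the atypical pair. Whether SAT and VAT differed in this relation was not tested.

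**Figure D3:**
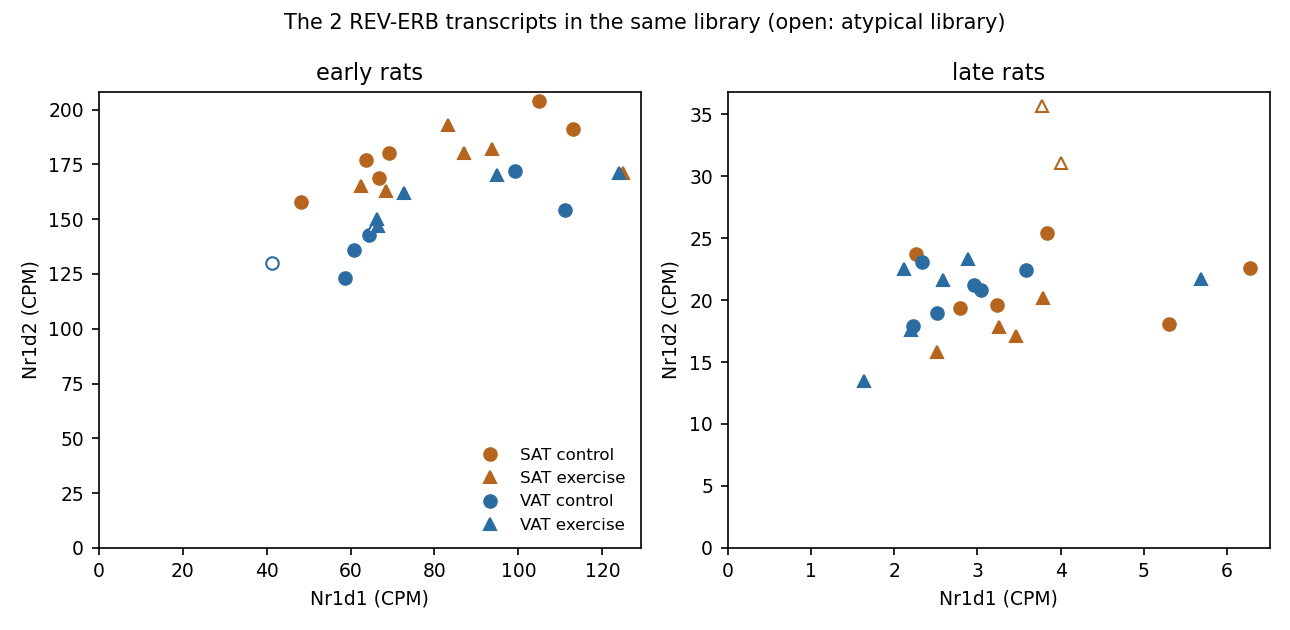
CPM of Nr1d2 (vertical axis) against CPM of Nr1d1 (horizontal axis) in the same library, for early (left) and late (right) rats on their own scales, coloured by depot and shaped by activity, with open symbols for atypical libraries. The early library with the least Nr1d1, an open symbol at 41.4 CPM, held 130 CPM of Nr1d2. The early library with the most Nr1d1, 125 CPM, held 171 CPM of Nr1d2, and the highest Nr1d2, 204 CPM, was at 105 CPM of Nr1d1. The open late symbols at 35.7 and 31.1 CPM of Nr1d2 sit at ordinary Nr1d1 values.

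The question put to exercise was whether sessions at one time of day changed the REV-ERB transcripts, and no such change passed the threshold for either gene in either depot. At the early phase the log2 difference of exercise minus control was 0.161 ± 0.222 (SE) for Nr1d1 and -0.031 ± 0.154 for Nr1d2 in SAT, and 0.18 ± 0.221 and 0.148 ± 0.102 in VAT. All 4 had an adjusted p of 1 with edgeR's quasi-likelihood test over all genes. The 95% intervals were -0.299 to 0.621 and -0.349 to 0.288 in SAT and -0.277 to 0.638 and -0.062 to 0.358 in VAT. They leave room for differences of either sign, so the groups are not shown to be alike. In these comparisons 0% of all genes tested were called in either depot, while 131 SAT genes and 345 VAT genes had an unadjusted p below 0.05; DESeq2 called 3 and 0 genes and limma voom 0 and 0.

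At the late phase exercise in SAT gave -0.187 ± 0.251 for Nr1d1 (mean 3.95 ± 1.55 in control and 3.47 ± 0.54 CPM after exercise; adjusted p = 0.636, edgeR) and 0.091 ± 0.157 for Nr1d2 (adjusted p = 0.719, edgeR). Neither gene was among the 11.5% of genes called in this comparison. The Nr1d2 estimate depended on the atypical pair, which carried 2.05 and 1.79 times the median of the other 4 rats, at 35.7 and 31.1 against 17.4 CPM. In these libraries 14.8% and 18.3% of genes were raised by at least that factor. Nr1d1 there was at 3.78 and 4.01 CPM against a median of 3.37 CPM.

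Without the pair the direction for Nr1d2 turned, to a log2 difference of -0.278 ± 0.097 (95% interval -0.48 to -0.077; unadjusted p = 0.00919, adjusted p = 0.114, edgeR). Late control libraries then ran from 18.1 to 25.4 CPM and the 4 exercised ones from 15.8 to 20.2 CPM, and the ranges overlapped. That value did not pass the threshold, which 2.14% of genes did in the same fit. Leaving out replicate 4 alone gave -0.078 ± 0.134 and replicate 6 alone 0 ± 0.159. In VAT of these rats, replicates 4 and 6 of late exercise, Nr1d2 stood at 21.6 and 22.5 CPM, within the range of the late controls.

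VAT at the late phase gave a difference of 0.04 ± 0.313 for Nr1d1 (adjusted p = 0.98, edgeR) and -0.048 ± 0.108 for Nr1d2 (adjusted p = 0.921, edgeR). The Nr1d1 value was -0.279 ± 0.296 without late exercise replicate 5. Here 0% of the genes were called, while 1557 had an unadjusted p below 0.05, against 43 calls by DESeq2 and 200 by limma voom.

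Whether exercise acted differently at the late and the early phase was tested as an interaction, and neither gene passed. In SAT the log2 interaction was -0.348 ± 0.336 for Nr1d1 (95% interval -1.04 to 0.347, adjusted p = 0.611, edgeR) and 0.122 ± 0.22 for Nr1d2 (-0.333 to 0.577, adjusted p = 0.803). Without the atypical pair the Nr1d2 value was -0.25 ± 0.127 (adjusted p = 0.518, edgeR). In VAT the interactions were -0.141 ± 0.384 (-0.936 to 0.654, adjusted p = 0.973, edgeR) and -0.197 ± 0.148 (-0.504 to 0.111, adjusted p = 0.838). In both depots 0% of genes were called for the interaction, while 2411 SAT genes and 975 VAT genes had an unadjusted p below 0.05; DESeq2 called 184 and 2, and limma voom 1 and 0.

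**Figure D4:**
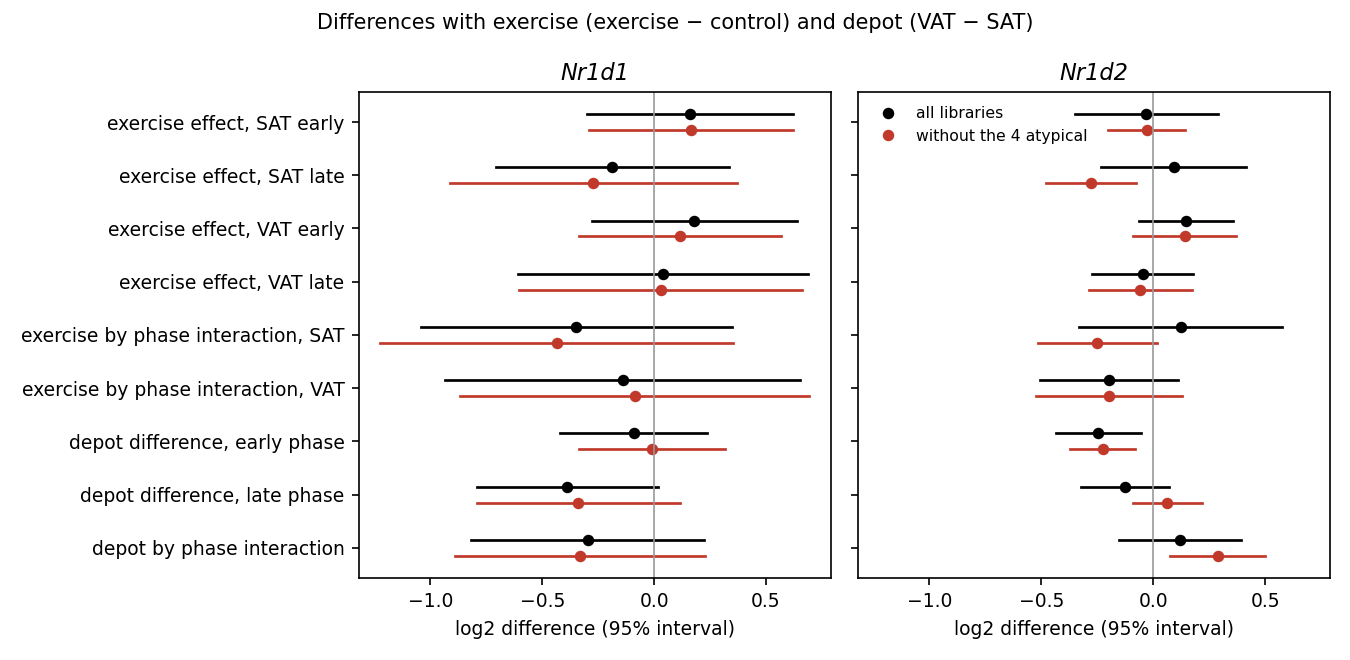
Fitted log2 differences (points) with 95% intervals (lines) for Nr1d1 (left) and Nr1d2 (right), as exercise minus control, VAT minus SAT and the interactions, with all libraries in black and without the 4 atypical ones in red. Nr1d2 in SAT late exercise moves from 0.091 to -0.278, and the early depot difference of Nr1d2 lies below 0 in both fits (-0.245 and -0.226).

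The depots were compared at each phase over control and exercised rats together. At the early phase Nr1d2 was lower in VAT than in SAT, by a log2 difference of -0.245 ± 0.094 or 1.18-fold (95% interval -0.435 to -0.055; adjusted p = 0.0346, edgeR). SAT held 178 ± 13.6 CPM (158 to 204) and VAT 150 ± 16.2 CPM (123 to 172, SD, n = 12 rats). SAT was the higher depot in 12 of 12 rats, by 1 to 1.37 times with a median of 1.2. In early exercise replicate 1 the depots were level at the precision given, at 171 CPM in both. The depot ranges overlapped, and depots differed for 40.2% of all genes in this comparison. Adjusted p was 0.00812 with the rat as a block and, without a block, 0.00783 when the atypical libraries were left out (edgeR). The fit without a block took the libraries as independent. Its adjusted p rose above 0.05, to between 0.0503 and 0.0622, when any 1 of several libraries was left out, with log2 differences of -0.237 to -0.225. These were SAT early control replicates 2 and 3, SAT early exercise replicate 3, VAT early control replicate 6, and VAT early exercise replicates 5 and 6. The fit with the rat as a block was not repeated with single libraries left out.

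Early Nr1d1 did not pass for depot, at -0.091 ± 0.163 (95% interval -0.419 to 0.237; adjusted p = 0.693, edgeR), with SAT higher in 10 of 12 rats by a median of 1.06 times. At the late phase Nr1d1 was 3.71 ± 1.13 CPM in SAT and 2.82 ± 1.04 CPM in VAT (SD, n = 12), a log2 difference of -0.389 ± 0.201. Its adjusted p was 0.0945 with edgeR on libraries taken as independent, in a comparison that called 57.2% of genes. With each rat as a block, which uses that both depots came from the same rats, adjusted p was 0.00425 (-0.407 ± 0.113, edgeR). The call thus depended on pairing the depots of a rat. SAT was higher in 9 of 12 rats, with a median ratio of 1.49 and a range of 0.573 to 1.89. The lowest ratio was that of late exercise replicate 5, and without its VAT library the unblocked difference was -0.535 ± 0.194 (adjusted p = 0.0185, edgeR). The unblocked difference was smaller without the atypical libraries, at -0.339 ± 0.224 (adjusted p = 0.199, edgeR). With limma voom and quality weights, also without a block, it was -0.235 ± 0.373 (adjusted p = 0.616). The fit with the rat as a block was not repeated under these changes.

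Late Nr1d2 did not pass for depot (-0.125 ± 0.097, adjusted p = 0.272, edgeR), with 22.2 ± 6.01 CPM in SAT and 20.4 ± 2.9 CPM in VAT. Without the atypical libraries the difference was 0.062 ± 0.076, so its direction depended on them. A different phase change in the 2 depots was tested directly and passed for neither gene, at -0.297 ± 0.258 for Nr1d1 (adjusted p = 0.544, edgeR) and 0.119 ± 0.135 for Nr1d2 (adjusted p = 0.66, edgeR), where 6.83% of genes were called. For Nr1d2 it was 0.288 ± 0.105 without the atypical libraries (unadjusted p = 0.00875, adjusted p = 0.116, edgeR). With each rat as a block, the depot by phase difference was -0.304 ± 0.143 for Nr1d1 (unadjusted p = 0.0442, adjusted p = 0.213, edgeR). That of Nr1d2 was then 0.147 ± 0.103 (adjusted p = 0.415, edgeR), so pairing the depots narrowed the Nr1d1 error and neither gene passed.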

How the data were processed

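PolyA RNA of 48 fat libraries was sequenced by the authors, who deposited estimated counts per gene as whole numbers. Per the submitters' processing notes the tool was Salmon 1.4.0 and the build rn6, while the annotation, the step from transcripts to genes and the strand setting were not given in the sources used here. RefSeq's GRCr8 table places Thra over an end of Nr1d1, and without a known strand setting reads of the overlap cannot be told apart. The gene and marker lists could not be used, since 0 rows of the name table carry an Ensembl ID. The members, lists and tests were chosen with earlier results of these data known.

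Counts were fitted with edgeR 4.0.16 (R 4.3.3; TMM, filterByExpr, quasi-likelihood test) over the 4 groups of a depot (14372 genes in SAT, 13883 in VAT) or all 8 groups (14693 genes, depot comparisons), with Benjamini-Hochberg adjustment at 0.05. CPM and log2 CPM use the TMM sizes over all 48 libraries. Standard errors are the log2 change over the square root of F. Intervals are 95%. The named genes are the pair and the 2 IDs most like and the 2 most opposite to it. The early exercise and early depot fits were also run on simulated counts of independent libraries. Late contrasts, interactions and blocks were not simulated, and no result here rests on the simulation. Alternatives were DESeq2 1.42.0, its size factors, limma 3.58.1 voom with quality weights, no filter, fits of 2 groups, a replicate block, and leaving out libraries; relations within early or late rats were added after seeing the data. Permutations numbered 100000 within groups, or all orders for 6 rats.

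No 2 libraries of a group agreed within sampling noise (120 pairs, chi-square per degree of freedom 8.15 to 553). Replicates are separate rats. The labels give 6 rats per group with both depots, and the replicate number was taken as the rat: over 122 to 173 genes whose deviations correlated between depots over 0.7 in the other rats, each time without the rat in question and without Nr1d1 and Nr1d2, the VAT library of the same number was the best match in its group for 24 of 24 SAT libraries. Over all genes the same-numbered depots correlated weakly, at -0.086 to 0.194 with a median of 0.116. Within a depot a number is shared by different rats.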

Additional observations from a re-analysis of the deposited data

Results flagged for a closer look

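Nr1d1 in VAT of late exercise replicate 5 stood at 5.69 CPM (82 counts), far from the 1.64 to 2.89 CPM of the other 5 rats of its group. It was the only one among 16 sets of 6 values (2 genes in 8 groups) in which the highest or lowest value lay so far out. Chance gives about 1 in 20 such sets, so 1 in 16 is near what chance would give. In the same library Nr1d2 was at 21.7 CPM, inside the range of its group, and in SAT of the same rat Nr1d1 was at 3.26 CPM.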

How the results depend on the processing

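Of 192 values under the alternatives that did not leave out a single library, 178 kept their direction and their side of the threshold, or moved by less than the spread between replicates. With limma voom and quality weights Nr1d1 differed between depots by 0.028 early and Nr1d2 by 0.032 late, the Nr1d2 SAT interaction was -0.147, its late SAT exercise difference -0.195 and its late minus early change in SAT of exercised rats -3.229. Without the atypical libraries the same 4 Nr1d2 values were 0.062, -0.25, -0.278 and -3.308. With the rat as the block, the late depot difference of Nr1d1 moved to -0.407 (adjusted p = 0.00425, edgeR), and no other call for the 2 genes changed. Within a depot the replicate number joins different rats, and as a block it changed no call. The Nr1d1 with Nr1d2 relation in SAT passed at r = 0.379 without the 2 farthest libraries and at 0.721 in early rats, and in late rats the VAT relation (0.563) and the Nr1d1 depot relation (0.322) did not pass; the cause was not tested.

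Leaving out 1 library at a time gave ranges of -0.535 to -0.302 for Nr1d1 between depots late, -0.275 to -0.225 for Nr1d2 between depots early, -0.459 to 0.018 for the Nr1d1 interaction in VAT and -0.279 to 0.153 for Nr1d1 with late exercise in VAT. For Nr1d2 the ranges were -0.047 to 0.207 for the SAT interaction, -0.066 to 0.007 for early exercise in SAT, -0.078 to 0.176 for late exercise in SAT and -0.097 to 0.043 for late exercise in VAT, 0.107 to 0.209 for early exercise in VAT, -0.257 to -0.105 for the VAT interaction, -0.168 to -0.049 between depots late and 0.077 to 0.205 for depot by phase. Those for Nr1d1 were 0.036 to 0.301 and 0.022 to 0.338 for early exercise in SAT and VAT, -0.31 to -0.007 for late exercise in SAT (highest without late control replicate 5), -0.49 to -0.168 for the SAT interaction, -0.172 to -0.023 between depots early (-0.009 without the atypical libraries) and -0.442 to -0.211 for depot by phase. Of the differences not called with all libraries, only Nr1d1 between depots late passed when 1 library was left out. None of the fits that left out 1 library used a block. Counts of called genes also moved. Late exercise in SAT called 1654 genes, against 2718 with DESeq2, 298 with limma voom and 310 without the atypical pair. It called 0 in a fit of the 2 groups alone. With the replicate number as a block, which joins different rats within a depot, it called 385. The depot by phase test called 1004, 520 with the rat as a block and 480 without the atypical libraries. Nr1d1 and Nr1d2 were in none of these lists.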

Other observations

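Late exercise replicate 2 held the least of both transcripts in both depots of its group, a rat singled out after its values were seen. Nr1d1 was at 2.51 CPM in SAT and 1.64 CPM in VAT, from 38 and 22 counts, and Nr1d2 at 15.8 and 13.5 CPM. The Nr1d2 values rest on 240 and 181 counts. These were also the lowest Nr1d2 values of any library in each depot.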
